A study of Mus musculus with 4 samples.

Results

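Red blood cells and their late precursors in the fetal mouse penis were examined through the barcodes that a hemoglobin filter takes out of single-cell libraries. A barcode was counted as erythroid when it held more than 1000 unique molecular identifiers (UMIs, 1 per captured mRNA molecule) and when genes named Hba- or Hbb- took at least 50% of them. The rule found 6285 erythroid barcodes among 43533 with more than 1000 UMIs, and among 47040 deposited in all. The globin share itself chose the barcodes, so it is given as a description without a test, and so is any difference in level between erythroid and other barcodes. Whether the genotype difference was alike in both was tested.

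The 4 libraries came from genitalia of male embryos at embryonic day 16.5 and were made with the 10x Genomics 3' method. The 2 DTA- libraries are controls that carried the floxed diphtheria toxin A allele at Rosa26 but no Nr5a1-Cre (labelled wild type). The 2 DTA+ libraries carried both, so that the toxin was aimed at cells with a history of Nr5a1 expression. The study reports that most of these cells, but not all, were lost from the penis. Dams were homozygous for the toxin allele and sires carried Nr5a1-Cre with a tdTomato reporter. Nr5a1-Cre is also active in the adrenal gland and testis, so the ablation is not limited to the penis, and effects of lost steroid hormones and of lost penile cells cannot be told apart here. The files do not say how many embryos went into a library, so p-values measure the spread between libraries.

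Definitive erythroblasts mature in the fetal liver, lose their nucleus and enter the circulation as reticulocytes, which still carry mRNA and organelles and clear both within days. An earlier, primitive wave arises in the yolk sac and uses the embryonic globins Hbb-y, Hbb-bh1 and Hba-x. In the mm10 reference used for counting, the adult genes are Hba-a1 and Hba-a2 for alpha chains and Hbb-bs and Hbb-bt for beta chains. The study's mouse line names give several strain backgrounds, and which beta globin alleles the embryos carried was not tested.

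The label was first set against marker genes. All 6285 barcodes held Hba-a1 and Hbb-bs, which the rule uses. Alas2, the erythroid enzyme that starts heme synthesis and was not used by the rule, was detected in 79.9% of erythroid barcodes of DTA- replicate 1, 86.3% of DTA- replicate 2, 76.6% of DTA+ replicate 1 and 86.3% of DTA+ replicate 2. In barcodes under 10% globin Alas2 was seen in 0.850%, 0.743%, 0.250% and 0.294% of barcodes in the same order, at median depths of 5394, 4350, 3779 and 3760 UMIs against 4391, 2954, 3564 and 3721 UMIs in erythroid barcodes. Slc4a1, the band 3 anion exchanger of the red cell membrane, gave 459, 186, 417 and 279 UMIs. The regulators of early erythroblasts were nearly absent, with 5, 3, 7 and 7 UMIs of Gata1 and 12, 7, 1 and 6 of Klf1. The markers present were those of late erythroid cells. Markers of fetal liver were at 0 except for 1 UMI of Apoa1 in DTA- replicate 1.

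**Figure D1:**
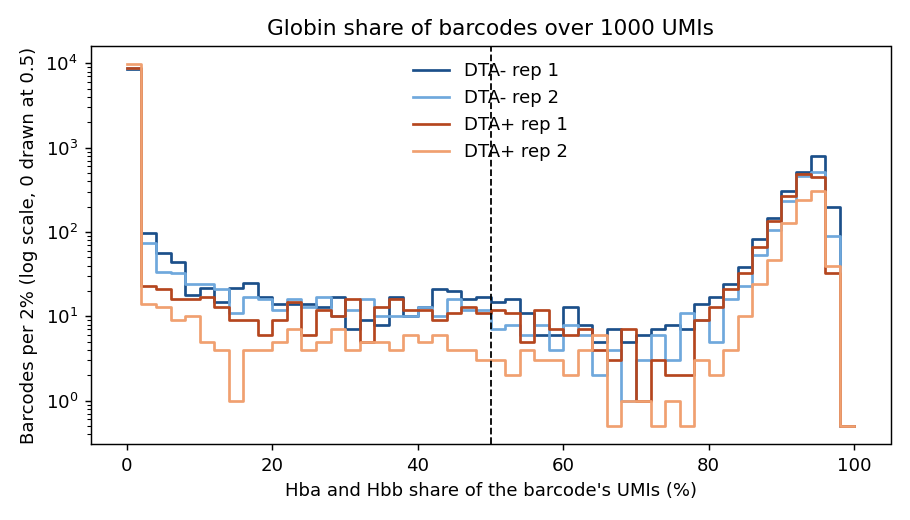
Number of barcodes (log scale, y axis) by the share of their UMIs from Hba and Hbb genes (x axis, percent) for the 4 libraries; the dashed line marks the 50% limit. Most barcodes lie near 0 or above 90%, with few between.

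Erythroid barcodes numbered 2258 in DTA- replicate 1, 1594 in DTA- replicate 2, 1593 in DTA+ replicate 1 and 840 in DTA+ replicate 2. As a share of barcodes over 1000 UMIs they were 19.8% (exact binomial 95% interval 19.1 to 20.6), 14.8% (14.2 to 15.5), 15.03% (14.4 to 15.7) and 7.78% (7.28 to 8.30), where the intervals cover counting error only. DTA+ replicate 2 held the fewest, and DTA- replicate 2 and DTA+ replicate 1 were nearly equal, so the groups overlapped. The means were 17.3% ± 3.53 in DTA- and 11.4% ± 5.12 in DTA+ (SD, n = 2), a difference of -5.92 percentage points (exact permutation test, two-sided, p = 0.667). It was -2.30 points without DTA+ replicate 2, -9.54 without DTA+ replicate 1 and -3.42 without DTA- replicate 1. Under the globin limits of the study (Hba above 25% or Hbb above 50%) the shares were 19.1%, 14.4%, 14.3% and 7.54%, where the groups just missed overlapping (exact permutation test, p = 0.333). With 2 libraries against 2 the exact permutation test cannot give less than p = 0.333, and all exact tests given here share that limit. Shares of barcodes depend on how much blood stayed in each tissue piece and on every other cell type in the library, and neither was measured.

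DTA+ replicate 2 stood apart in other ways. Its summed erythroid profile had the lowest correlations with the other libraries, 0.941 to 0.955 on log CPM (UMIs per 1000000 UMIs of the sum), against 0.957 to 0.961 among the other 3. It also had the shallowest erythroid sum, 3348762 UMIs against 10084005 in DTA- replicate 1, 5125277 in DTA- replicate 2 and 5786261 in DTA+ replicate 1.

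The boundary was thinly filled. Between 50 and 55% globin there were 36, 19, 28 and 7 barcodes, with median totals of 8989, 5859, 6499 and 7661 UMIs. Just below it, between 45 and 50%, there were 44, 29, 27 and 8 barcodes, with medians of 8943, 6596, 6360 and 6170 UMIs. These barcodes carried 1243 to 1884 genes at the median, where the median over all erythroid barcodes was 123, 101, 117 and 109 non-globin genes. From 50 to 80% globin, 344 of the 6285 barcodes had a median of 1058.5 non-globin genes. Of these, 65.1% held the mesenchymal collagen Col3a1, against 16.7% of the 1309 barcodes at 95% globin or more. Detection depends on depth, and median non-globin UMIs were 2317 and 164 in these ranges. As a share of non-globin UMIs the mesenchymal marker list stood at 0.720% and 0.240%. No doublet caller was run; erythroid barcodes at 80% globin or more are used as an alternative. Any pair of libraries shared at most 2 erythroid barcode sequences, 6 over all pairs.

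The erythroid barcodes held 88.2%, 84.3%, 88.3% and 90.2% of all globin UMIs in their libraries (DTA- replicates 1 and 2, then DTA+ replicates 1 and 2). The rest lay at or below 1000 UMIs or in other cells: barcodes under 10% globin carried Hbb-bs in 85.8%, 65.8%, 69.7% and 42.8% of cases. That share was lowest in the library with the fewest erythroid barcodes, and median depths in these barcodes differed, as given above.

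Globin usage was almost wholly adult. Hbb-bs took 57.3% and 58.6% of globin UMIs in the DTA- libraries and 56.2% and 56.7% in the DTA+ libraries. Hbb-bt took 15.6%, 13.8%, 14.8% and 15.6%, Hba-a1 took 15.5%, 16.1%, 16.7% and 15.7%, and Hba-a2 took 11.6%, 11.5%, 12.4% and 12.1% in the same order. Reads of 3' ends do not depend on transcript length, but Hba-a1 and Hba-a2, and Hbb-bs and Hbb-bt, are close copies. How the aligner divided ambiguous reads between them was not tested. All Hbb-bs and Hbb-bt values are of reads assigned to these reference genes, whatever alleles the embryos carried.

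The 120 bases before the RefSeq start of 4 globin genes are shown because the members of the beta pair differed in use from barcode to barcode while those of the alpha pair did not to the same extent. Capitals mark 4 short motifs on either strand: GATA (the GATA1 motif), CACCC (the KLF1 motif), CCAAT (the CCAAT box) and TATAA (the TATA box).
Hbb-bs: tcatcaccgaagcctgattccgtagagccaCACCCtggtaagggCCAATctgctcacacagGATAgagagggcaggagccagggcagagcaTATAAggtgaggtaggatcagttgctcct
Hbb-bt: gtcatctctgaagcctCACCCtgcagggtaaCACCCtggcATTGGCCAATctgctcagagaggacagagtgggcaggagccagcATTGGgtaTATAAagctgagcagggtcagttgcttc
Hba-a1: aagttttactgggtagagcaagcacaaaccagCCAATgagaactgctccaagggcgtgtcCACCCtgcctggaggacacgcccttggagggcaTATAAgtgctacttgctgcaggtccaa
Hbb-y: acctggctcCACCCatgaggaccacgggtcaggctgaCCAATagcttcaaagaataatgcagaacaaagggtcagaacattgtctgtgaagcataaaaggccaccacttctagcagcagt
They lie at chr7:103827929-103828048 (Hbb-bs, minus strand), chr7:103813924-103814043 (Hbb-bt, minus strand), chr11:32283552-32283671 (Hba-a1, plus strand) and chr7:103853208-103853327 (Hbb-y, minus strand) of GRCm38.p6. The Hba-a2 window matched that of Hba-a1 at 117 of 117 bases after a shift of 3 bases. Hbb-bs and Hbb-bt matched at 88 of 119 bases, and in these windows GATA was found in Hbb-bs but not in Hbb-bt. Among 32851 RefSeq windows of the same length, GATA was found in 29.5%, CACCC was found in 31.7%, CCAAT was found in 21.3% and TATAA was found in 11.8%, so a match is only a description.

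**Figure D2:**
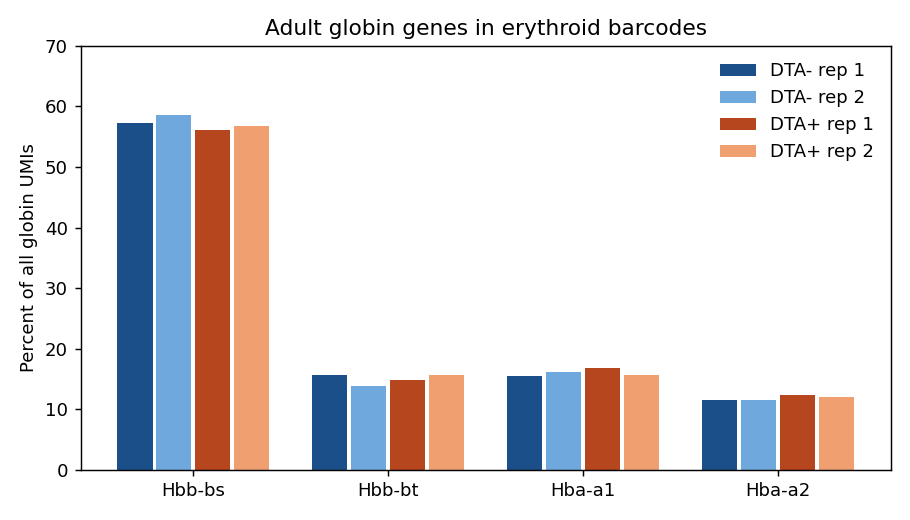
Share of all globin UMIs (y axis, percent) taken by each adult globin gene (x axis) in the erythroid barcodes of each library, 1 bar per library. Hbb-bs is highest in all 4 libraries, from 56.2% to 58.6%, Hba-a2 is lowest, and Hbb-bt and Hba-a1 lie close together.

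Alpha and beta usage differed little between genotypes. Hba genes together took 27.3% ± 0.352 of globin UMIs in DTA- and 28.4% ± 0.949 in DTA+ (SD, n = 2), a difference of 1.08 percentage points in which the groups did not overlap (exact permutation test, two-sided, p = 0.333). It was 0.408 points without DTA+ replicate 1 and 1.75 without DTA+ replicate 2. Hbb-bs was lower in both DTA+ libraries, by -1.53 percentage points, with the same p = 0.333 from the exact permutation test. Hbb-bt took 20.2% ± 1.70 of adult beta UMIs in DTA- and 21.2% ± 0.514 in DTA+ (SD, n = 2; exact permutation test, p = 0.667).

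Embryonic globins were rare, and most of their UMIs sat in a few barcodes of the control libraries. Hbb-y, the main embryonic beta gene, gave 987 UMIs in DTA- replicate 1, 2 in DTA- replicate 2, 30 in DTA+ replicate 1 and 1 in DTA+ replicate 2. Hba-x, the embryonic alpha gene, gave 343, 2, 2 and 1, and Hbb-bh1 gave 2, 53, 4 and 0. Hbb-bh2 was at 0 in all 4 libraries. Of the 987 Hbb-y UMIs, 957 came from 3 barcodes. The embryonic genes held 0.0146%, 0.00123%, 0.000693% and 6.56e-05% of globin UMIs. In the gene by gene fit described further on Hbb-y had a log2 fold change of -4.03 (SE 0.919, adjusted p = 0.109 by edgeR's quasi-likelihood test), and without DTA- replicate 1 it was 2.77. The call depended on the setting. Hbb-y was called by edgeR's likelihood ratio test (adjusted p = 0.00972). With DESeq2 size factors it was called in the quasi-likelihood test of edgeR (adjusted p = 0.000609). A fit with a replicate block also called it, as given further on. It was not called by DESeq2 (adjusted p = 0.999).

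Only 2 barcodes, both in DTA- replicate 1, had at least 50% of their beta UMIs from embryonic genes. The first had 1268 UMIs with 257 of Hbb-y and 172 of Hba-x, beside 192 of Hbb-bs. The second had 1928 UMIs with 635 of Hbb-y and 132 of Hba-x, beside 399 of Hbb-bs. Neither held a UMI of Alas2. They made up 0.0886% of that library's erythroid barcodes. The other libraries had 0 of 1594, 0 of 1593 and 0 of 840, which allows shares of up to 0.188%, 0.188% and 0.357%, so a difference between genotypes was not detectable at this depth. In DTA- replicate 2 a single barcode of 6163 UMIs held 52 of the 53 Hbb-bh1 UMIs and no Hbb-y.

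The use of the adult beta genes varied much more between barcodes than between libraries. Within a library the share of Hbb-bt among Hbb-bt and Hbb-bs UMIs ran from 2.90% (5th percentile) to 31.4% (95th percentile) in DTA- replicate 1, from 3.94% to 27.2% in DTA- replicate 2, from 3.13% to 30.9% in DTA+ replicate 1 and from 4.58% to 29.1% in DTA+ replicate 2. The SD over barcodes was 9.31, 7.64, 9.18 and 8.02 percentage points, where counting alone gives 0.910, 0.966, 0.975 and 0.934. The share of Hba-a2 among the adult alpha UMIs had SDs of 2.72, 2.99, 2.61 and 2.66 percentage points, against 1.87, 2.11, 1.95 and 1.94 from counting. The beta pair thus spread far beyond counting error and the alpha pair a little beyond it.

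**Figure D3:**
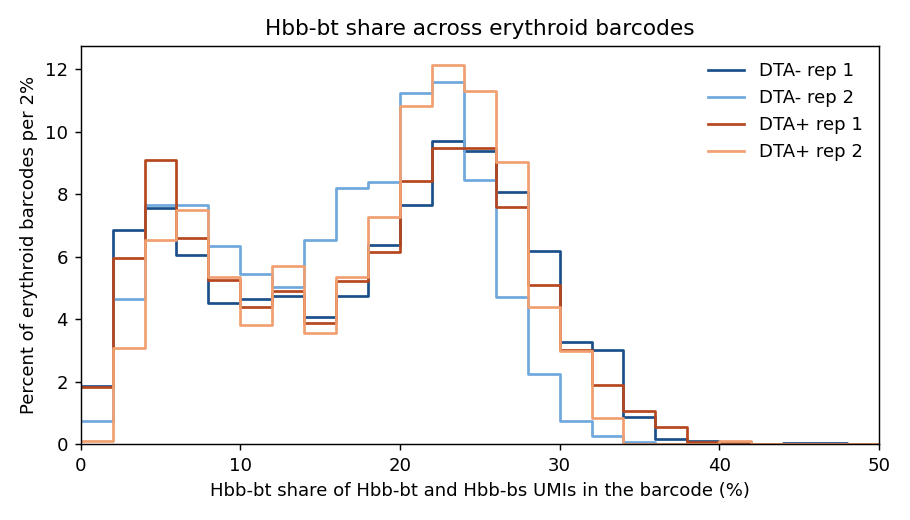
Percent of a library's erythroid barcodes (y axis, in steps of 2 percentage points) by the share of Hbb-bt among Hbb-bt and Hbb-bs UMIs (x axis, percent), 1 line per library. Each line has a low peak between 4 and 8% and a high peak between 22 and 26%, with fewer barcodes between 10 and 16%.

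The distribution had a low and a high peak in all 4 libraries. The high peak lay between 22 and 24% in DTA- replicates 1 and 2 and DTA+ replicate 2, and was level from 22 to 26% in DTA+ replicate 1. The low peak lay between 4 and 6% in DTA- replicate 1 and DTA+ replicate 1, between 6 and 8% in DTA+ replicate 2, and was level from 4 to 8% in DTA- replicate 2. Barcodes were therefore divided into 4 ranges of the Hbb-bt share, under 5%, 5 to 15%, 15 to 25% and at least 25%. These ranges were chosen after the values were seen, they cut a continuous measure and many barcodes lie near the limits, so they are not cell types.

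Barcodes with a higher Hbb-bt share held more mRNA. The median total rose through the 4 ranges from 1561 to 2787, 4900 and 6717 UMIs in DTA- replicate 1. It was 1286, 1987, 3618 and 5317 in DTA- replicate 2, 1343, 2286, 4055 and 5507 in DTA+ replicate 1, and 1315, 1956, 4079 and 6116 in DTA+ replicate 2. The alpha share moved with it, from medians of 23.2%, 22.0%, 24.6% and 21.2% of globin UMIs in the lowest range (library order as before) to 27.6%, 29.6%, 30.0% and 28.6% in the highest.

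Levels of single genes were then read through the 4 ranges. Car2, the carbonic anhydrase of red cells, went from 41.1 ppm (UMIs per 1000000 non-globin UMIs) under 5% to 49.4, 1020 and 2895 in DTA- replicate 1, and from 108 to 135, 1055 and 2480 in DTA- replicate 2. In DTA+ replicate 1 it was 33.6, 85.1, 1345 and 3023, and in DTA+ replicate 2 it was 0, 0, 2971 and 5229. The 2 lower ranges were thus almost empty of Car2 and the 2 upper ones were not.

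Bpgm, which makes the 2,3-bisphosphoglycerate that lowers oxygen affinity, was 1337, 2084, 8771 and 11130 ppm through the 4 ranges in DTA- replicate 1 and 865, 1475, 7251 and 9829 in DTA- replicate 2. It was 605, 1670, 9273 and 11220 in DTA+ replicate 1 and 1035, 1482, 8937 and 11714 in DTA+ replicate 2, so its widest gap lay at 15% in each library. Prdx2, a peroxidase abundant in red cells, climbed more gradually in DTA- replicate 1, with 1542, 3056, 5084 and 8979, and in DTA+ replicate 1, with 1849, 2659, 5707 and 9290. It was 811, 811, 3213 and 6703 in DTA- replicate 2 and 1035, 2297, 10419 and 14721 in DTA+ replicate 2.

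Alas2 behaved differently, with 4442, 8518, 12367 and 10548 ppm in DTA- replicate 1 and its highest level in the 15 to 25% range in each library. Gm42418, a locus that overlaps ribosomal RNA, went the other way, from 99451 under 5% to 28100 at 25% or more in DTA- replicate 1, and it fell through the 4 ranges in each of the other libraries too. Because depth moved with the ranges, the step was also read among barcodes of 2000 to 4000 UMIs. There Car2 was 26.5, 142, 130 and 0 ppm below an Hbb-bt share of 15% and 680, 859, 1244 and 883 above it, and Bpgm was 2567, 2149, 2553 and 2114 below and 7888, 7999, 10012 and 9414 above. Median depth within that window was still higher above the limit, at 3315, 3315, 3523.5 and 3454 UMIs against 2893, 2477.5, 2605 and 2634 below it, and the part of depth in the step was not tested.

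**Figure D4:**
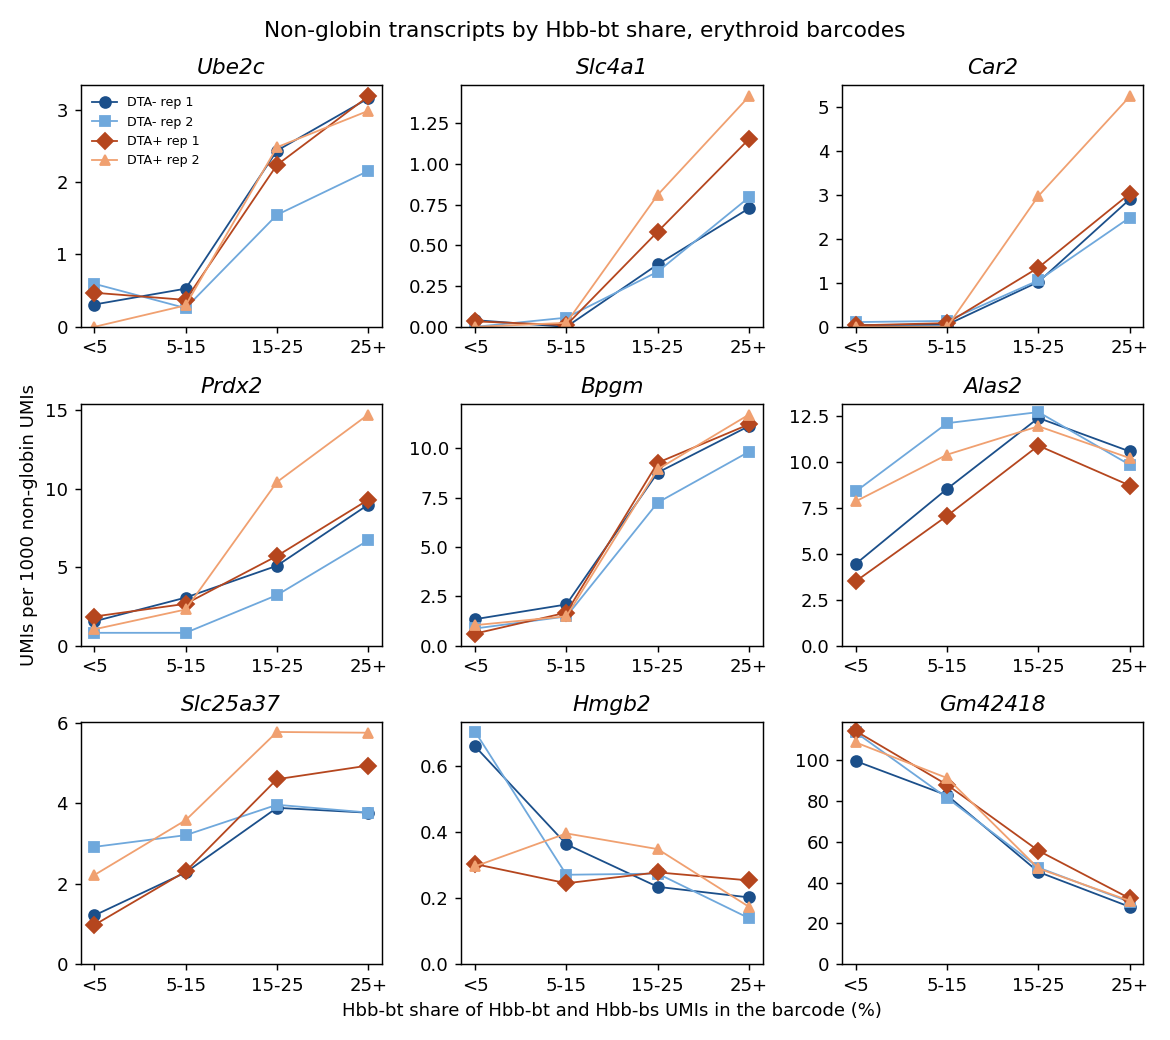
Level of 9 genes (y axes, UMIs per 1000 non-globin UMIs, each axis from 0) in erythroid barcodes grouped by Hbb-bt share (x axes, percent of Hbb-bt and Hbb-bs UMIs); each line is a library. Ube2c, Slc4a1, Car2 and Bpgm are low below 15% and climb above it, Prdx2 climbs more gradually in the first library of each genotype, Alas2 peaks in the 15 to 25% range, and Gm42418 falls throughout.

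Slc4a1 was higher in both DTA+ libraries in the upper ranges. At an Hbb-bt share of 25% or more it was 726 and 794 ppm in the DTA- libraries and 1151 and 1413 in the DTA+ libraries, and at 15 to 25% it was 383 and 338 against 583 and 809. The ranges were read for Slc4a1 because the fit over all erythroid barcodes had put it near the top of its list, where it was not called (adjusted p = 0.257 by edgeR's quasi-likelihood test). In that fit 38.3% of all genes tested had groups that did not overlap, so its lack of overlap is no result. Car2 and Prdx2 were highest in DTA+ replicate 2 in both ranges.

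The share of barcodes in each range also gave no clear division by genotype. The range under 5% held 12.7%, 8.97%, 11.7% and 6.43% of erythroid barcodes, and that of 25% or more held 26.8%, 12.7%, 23.5% and 23.2%. DTA- replicate 2 had the fewest in the upper range, and the groups overlapped in both.

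Non-globin mRNA made up a small remainder. The median barcode held 235, 182, 216 and 206 non-globin UMIs, and 72 genes accounted for 50% of them. Beside Gm42418 and AY036118, which overlap ribosomal RNA, the leading genes were Ftl1 and Fth1, the ferritin chains, Tpt1, the mitochondrial genes mt-Co3, mt-Atp6, mt-Co1 and mt-Co2, Mkrn1, a ubiquitin ligase, the ribosomal gene Rpl41, Ubb, which encodes ubiquitin, Gpx1, a glutathione peroxidase, Alas2, Oaz1, Malat1, Bpgm, H3f3a and Rps2. Mkrn1 averaged 14007 ppm in erythroid barcodes and 48.7 in the others, Alas2 10538 and 15.5, and Bpgm 8147 and 23.1. Since globin chose the barcodes, these pairs are given without a test.

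Mitochondrial genes took 7.67%, 6.92%, 9.63% and 7.63% of non-globin UMIs, and ribosomal protein genes took 21.9%, 26.1%, 20.2% and 18.8%. The ribosomal share was lower in both DTA+ libraries (24.0% ± 2.99 against 19.5% ± 0.940, SD, n = 2; exact permutation test, two-sided, p = 0.333).

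Heme synthesis was represented by its erythroid enzyme and its mitochondrial carriers. The 13 genes of the list took 1.94%, 2.00%, 1.82% and 2.15% of non-globin UMIs. Alas2 gave the most of any member, with 10128, 5579, 5274 and 3282 UMIs. Slc25a37, which imports iron into mitochondria, followed with 3334, 1785, 2473 and 1621, and Slc25a39, a mitochondrial carrier, with 2098, 1116, 1316 and 619. Fech, which inserts the iron, gave 2341, 908, 1312 and 638. The housekeeping form Alas1 had 7, 6, 3 and 1, so the list rests on the erythroid form.

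Iron genes were led by the ferritin chains, which store iron. The list took 5.23%, 4.66%, 5.49% and 6.39% of non-globin UMIs through Ftl1 and Fth1, followed by Glrx5, an iron-sulfur cluster protein. Ncoa4, which releases iron from ferritin, gave 786, 463, 551 and 366 UMIs, and Snx3, which recycles the transferrin receptor, gave 467, 238, 299 and 123. Tfrc, the transferrin receptor itself, gave 8, 12, 15 and 4 UMIs, and Tfr2 gave none.

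Genes of late maturation were present and those of early stages nearly lacking. Ubb, Bnip3l, which marks mitochondria for removal, and Gabarapl2, an autophagy protein, led a list that took 2.91%, 2.37%, 2.68% and 3.35% of non-globin UMIs. Bnip3l had 4106, 1977, 2533 and 1414 UMIs. The progenitor list of 8 genes took 0.00482%, 0.00795%, 0.00611% and 0.00433%, with 8, 1, 1 and 1 UMIs of Kit and 1, 0, 0 and 0 of Epor, the erythropoietin receptor. Cd34, the largest of that list with 26, 23, 22 and 5 UMIs, is also a gene of vessel lining and mesenchyme.

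Of the cell cycle lists a few genes were well represented and the others were not. Ube2c, a ubiquitin-conjugating enzyme of mitosis, gave 2317, 681, 1328 and 701 UMIs and Nusap1 gave 495, 228, 333 and 157, whereas Top2a gave 64, 37, 31 and 15, Mki67 52, 29, 48 and 16 and Ccnb1 14, 6, 14 and 4. Ube2c, like Car2, was low below an Hbb-bt share of 15% and higher above it. Through the ranges it was 308, 527, 2433 and 3154 ppm in DTA- replicate 1 and 595, 259, 1546 and 2152 in DTA- replicate 2. It was 471, 372, 2235 and 3181 in DTA+ replicate 1 and 0, 296, 2480 and 2982 in DTA+ replicate 2. The 14 S phase genes together held 0.0364%, 0.0406%, 0.0316% and 0.0316% of non-globin UMIs.

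None of these list shares could be called different between genotypes with 4 libraries. Iron genes were higher in both DTA+ libraries, at 4.95% ± 0.409 against 5.94% ± 0.636 (SD, n = 2; exact permutation test, p = 0.333, the smallest possible). Glucocorticoid-induced genes were lower in both, at 0.105% ± 0.0137 against 0.0752% ± 0.00653 (SD, n = 2; exact permutation test, p = 0.333). The metallothionein gene Mt1 gave 856 of the 1092 UMIs of that list in DTA- replicate 1 and 328 of 454 in DTA- replicate 2. In DTA+ replicates 1 and 2 it gave 310 of 416 and 178 of 240. S phase genes were also lower in both DTA+ libraries, at 0.0385% ± 0.00294 against 0.0316% ± 2.34e-05 (SD, n = 2; exact permutation test, p = 0.333). Redox genes were at 2.62% ± 0.433 and 3.47% ± 0.945 (SD, n = 2), where DTA+ replicate 2 alone was high, at 4.13%. The median number of non-globin UMIs per barcode was 208.5 ± 37.5 in DTA- and 211 ± 7.07 in DTA+ (SD, n = 2; exact permutation test, p = 1).

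The genotypes were then compared gene by gene on UMIs summed over the erythroid barcodes of each library. The quasi-likelihood test of edgeR, with p-values adjusted by the Benjamini-Hochberg method, called 4 of 4231 genes at an adjusted p under 0.05, or 0.0945% of those tested. Of these, 1 was higher (0.0236%) and 3 were lower (0.0709%) in DTA+. Before adjustment 362 genes (8.56%) had p under 0.05, and for 38.3% of genes the groups did not overlap, so the absence of overlap is by itself no result. The called genes were Pgam1, Tpsb2 and Cpa3, which were lower, and the tdTomato reporter, which was higher.

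Pgam1, the phosphoglycerate mutase of glycolysis (chr19:41911923-41918660, plus strand, GENCODE vM21 on GRCm38), was the only called gene of appreciable level. It measured 38.8 and 50.7 CPM in the DTA- libraries and 13.8 and 8.53 CPM in the DTA+ libraries, scaled by edgeR's TMM method. Both DTA+ libraries were well below both controls. The log2 fold change was -1.95 (SE 0.290, adjusted p = 0.00195 by edgeR's quasi-likelihood test), and it rested on 401, 236, 89 and 27 UMIs. Leaving out DTA+ replicate 2 gave -1.73 with an adjusted p = 0.108 by edgeR's quasi-likelihood test, a change of a similar size that was not called. In every fit without a library, the genotype left with 1 library is assumed to vary like the other. Thinning every barcode to 1000 UMIs gave -1.60 with an adjusted p = 0.108 by edgeR. The thinned fit called 1 gene, lower in DTA+ and shared with the main test, and that gene was thus Tpsb2 or Cpa3. Pgam1 has processed pseudogenes, Pgam1-ps1 and Pgam1-ps2 among them, which had no entry in the feature list used for counting.

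Pgam1 was lower in both DTA+ libraries in each range of globin share. It was 343 and 384 ppm in the DTA- libraries and 201 and 102 in the DTA+ libraries at 50 to 80% globin. At 90 to 95% globin, the fullest range, it was 490 and 622 against 147 and 85.3. At 95% or more it was 369 and 319 against 58.3 and 66.7, from 42, 14, 2 and 2 UMIs. The log2 ratio of group means was -1.26 at 50 to 80% globin and -2.46 at 95% or more.

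By Hbb-bt share the difference was widest in the ranges that hold Car2. At 5 to 15% Pgam1 was 247 and 214 ppm in the DTA- libraries and 117 and 49.4 in the DTA+ libraries. At 15 to 25% Pgam1 was 483 and 568 ppm in the DTA- libraries and 165 and 90.7 in the DTA+ libraries, and at 25% or more it was 448 and 606 against 154 and 90.9. Under 5% it was 165 and 108 against 135 and 296, values of few UMIs in which the direction was the opposite. In the barcodes that are not erythroid Pgam1 stood at 286, 260, 194 and 203 ppm, a log2 fold change of -0.53 with an adjusted p = 0.143 in edgeR's quasi-likelihood test. The responses in erythroid and other barcodes differed by -1.46 on the log2 scale (SE 0.242, adjusted p = 8.92e-06 by edgeR's quasi-likelihood test of the interaction, which called 0.0691% of genes).

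**Figure D5:**
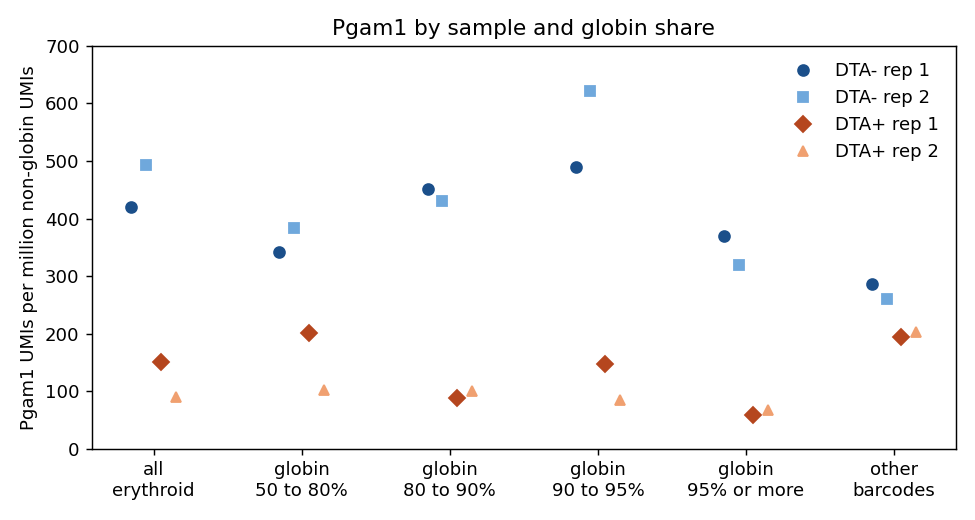
Pgam1 level in ppm (y axis) in all erythroid barcodes, in 4 ranges of globin share and in the other barcodes (x axis), 1 point per library. The DTA+ points lie below the DTA- points in every group, and by less in the other barcodes.

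Tpsb2 and Cpa3, proteases of mast cell granules, were lower in DTA+ at very low levels. Tpsb2 had 100 and 17 UMIs in the DTA- libraries and 6 and 3 in the DTA+ libraries, a log2 fold change of -2.91 (SE 0.494, adjusted p = 0.00774 by edgeR's quasi-likelihood test). Cpa3 had 89 and 38 against 16 and 8 UMIs, a log2 fold change of -1.74 (SE 0.336, adjusted p = 0.0240 by the same test of edgeR). Without DTA- replicate 1 the value of Tpsb2 was -1.94 and it was not called (adjusted p = 0.452 by edgeR). Neither gene was called with DESeq2 (adjusted p = 0.259 for Tpsb2 and 0.999 for Cpa3), without DTA+ replicate 1 (0.236 and 0.274 by edgeR) or without DTA+ replicate 2 (0.0685 and 0.114 by edgeR). The most abundant gene of the mast cell list, Cma1, had 113, 37, 41 and 8 UMIs and was not called, Mcpt4 had 12, 4, 6 and 2, and Ms4a2 had 1, 0, 0 and 0. The 5 genes together were at 330, 201, 117 and 70 ppm in erythroid barcodes and at 801, 919, 916 and 627 in the others, so the list was lower in erythroid barcodes than in the others of each library.

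The mast cell UMIs were unevenly placed. In DTA- replicate 1 a single erythroid barcode held 90 of the 315 UMIs of the list, and another held 33. In DTA- replicate 2 the fullest barcode held 16 of 96, and in the DTA+ libraries none held more than 2. At 80% globin or more Tpsb2 was at 34, 14, 5 and 3 UMIs, and neither gene was called (log2 fold changes of -1.89 for Tpsb2 with an adjusted p = 0.507, and -1.29 for Cpa3 with an adjusted p = 0.561, by edgeR's quasi-likelihood test). With barcodes down to 25% globin included the log2 fold changes were 2.71 and 2.55, so the direction depended on which barcodes were taken. The part of mixed droplets and free mRNA in these calls was not tested.

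tdTomato, the Cre reporter, whose transcript the study's methods describe as leaky, had 0 and 0 UMIs in the DTA- libraries and 15 and 11 in the DTA+ libraries. The other barcodes held 0 and 0 tdTomato UMIs in the DTA- libraries and 3531 and 3115 in the DTA+ libraries. The control libraries thus held no reporter transcript in any barcode over 1000 UMIs, so the call is no measure of a response of erythroid cells and its fold change is not given. The part of free mRNA in the erythroid count was not tested. Nr5a1 had no UMI in any erythroid barcode.

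The membrane and cytoskeleton list held no called gene. Of its 22 genes 14 could be tested, 12 were higher and 2 lower in DTA+, where 2068 of all 4231 genes were higher, and the median log2 fold change was 0.63 beside -0.01 over all genes tested. The list took 1.08% and 0.833% of non-globin UMIs in the DTA- libraries and 1.02% and 1.57% in the DTA+ libraries, so the groups overlapped (exact permutation test, two-sided, p = 0.667). The difference of 0.339 percentage points rested on DTA+ replicate 2, since without it 0.0611 points were left. Slc4a1 was at 44.4 and 39.9 CPM in the DTA- libraries and at 64.9 and 88.2 in the DTA+ libraries (adjusted p = 0.257 by edgeR's quasi-likelihood test). Epb42, the band 4.2 protein that ties band 3 to the skeleton, was at 1.93 and 1.29 against 4.04 and 6.01 CPM (adjusted p = 0.213 by edgeR's quasi-likelihood test).

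Apart from the mast cell markers, the other lists held no called gene either. In heme synthesis 9 of 13 genes were tested, 6 higher and 3 lower in DTA+, with a median log2 fold change of 0.35, and Alas2 was at 980, 1198, 820 and 1037 CPM (adjusted p = 0.814 by edgeR's quasi-likelihood test). In redox and red cell metabolism 9 of 13 were tested, with a median of 0.16, in late maturation 13 of 18, with 0.18, in iron 8 of 12, with 0.14, and among erythroid transcription factors 10 of 15, with 0.12. The S phase list had 8 of 14 tested with a median of -0.20, the G2 and M list 11 of 14 with -0.25, and the dissociation stress list 10 of 12 with -0.09. Prdx2 was at 601, 366, 601 and 1031 CPM (adjusted p = 0.457 by edgeR's quasi-likelihood test).

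A pair of lists holds genes induced by hormones. Of the 9 erythropoietin-induced genes 4 could be tested, and their log2 fold changes lay between 0.05 and 0.70, with a median of 0.20. The lowest was that of Bcl2l1, which keeps erythroblasts alive, at 43.5, 31.6, 37.8 and 40.8 CPM. The highest was that of Socs3, a feedback inhibitor of cytokine signalling, at 5.03, 7.94, 8.71 and 12.0 CPM (adjusted p = 0.537 by edgeR's quasi-likelihood test). All 4 of the 12 glucocorticoid-induced genes that could be tested were lower, with a median of -0.36. Mt1, a metallothionein, was at 82.8 and 70.4 CPM in the DTA- libraries and 48.2 and 56.3 in the DTA+ libraries (adjusted p = 0.562 by edgeR's quasi-likelihood test). Fkbp5, a classic glucocorticoid target, had 22, 9, 5 and 1 UMIs, too few to be tested in erythroid barcodes. In the other barcodes its log2 fold change was -2.40 (adjusted p = 0.00450 by edgeR's quasi-likelihood test).

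Transcripts of other cells moved between libraries too. Mesenchymal markers, led by Col3a1, took 3214, 5129, 3993 and 3098 ppm in erythroid barcodes and 7532, 12670, 10054 and 7540 in the others, so DTA- replicate 2 was highest in both. All 6 were tested and none was called. Endothelial genes stood at 87, 109, 121 and 80, macrophage genes at 70, 159, 54 and 40, platelet genes at 44, 117, 46 and 23 and epithelial genes at 220, 241, 171 and 113 ppm. Smooth muscle genes stood at 194, 84, 49 and 40, pericyte genes at 59, 48, 75 and 60 and glial genes at 31, 17, 10 and 10. The neutrophil list had 8, 3, 3 and 0 UMIs in erythroid barcodes, none of them from Mpo, Elane, Ngp or Ltf.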

How the data were processed

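The authors made 10x Genomics 3' libraries, and the deposited values are raw UMI counts per gene and barcode from Cell Ranger 4.0.0 per the file headers (the study's methods name another version), aligned to mm10 with reporter sequences added, over 32287 features. No value was normalized by the authors. Libraries held 73577028, 53654435, 50794318 and 50779551 UMIs. Erythroid barcodes were summed per library and tested with edgeR 4.0.16 (quasi-likelihood, TMM, filterByExpr, Benjamini-Hochberg over all genes tested, threshold 0.05). An interaction model with library as block compared erythroid with all other barcodes over 1000 UMIs. Measures with 1 value per library were compared by exact permutation tests (scipy). Alternatives were a likelihood ratio test, DESeq2 1.42.0, other scalings, filters and limits, a replicate block and each library left out. Promoter sequences are from RefSeq (GRCm38.p6), and all 4 printed genes were matched. The test scripts were tested on simulated data with 200 changed genes. There the gene by gene test recovered a median of 28% of 2-fold and 84% of 4-fold changes over 5 runs. The interaction test recovered 33.5% of 4-fold changes in 1 run. A gene that was not called may therefore still differ. The members, gene lists and tests were chosen with earlier results of these data known. Named genes were the globins, the 3 markers, the 20 most abundant non-globin genes, up to 8 called genes in each direction of at least 20 CPM without overlap, called list members, the 3 most abundant of each list and Fkbp5. Other named genes, the ranges of Hbb-bt share, the comparison at similar depth and Pgam1 by range were chosen after their values were seen. Some named genes are not reported here. Ahsp was not found under that symbol.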

Additional observations from a re-analysis of the deposited data

Results flagged for a closer look

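The genotype response differed between erythroid and other barcodes for 11 of 15917 genes, or 0.0691%, in edgeR's quasi-likelihood test of the interaction (496 at an unadjusted p under 0.05). Differences are the log2 response in erythroid barcodes minus that in the others. Pgam1 differed by -1.46 (SE 0.242, adjusted p = 8.92e-06 by edgeR), since it was lower in the DTA+ libraries mainly in erythroid barcodes.

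The mast cell genes Tpsb2 and Cpa3 differed by -2.70 (SE 0.422) and -1.52 (SE 0.338), and the smooth muscle actin Acta2 by -2.68 (SE 0.462). Acta2 had 89, 8, 7 and 0 UMIs in erythroid barcodes, so DTA- replicate 1 carried most of it. Cxcl2 differed by -12.98 (SE 2.55), a fitted value that is no measure of size because both DTA+ libraries had 0 UMIs in erythroid barcodes. Gt(ROSA)26Sor, the transcript of the Rosa26 locus that carries the alleles, differed by -1.79 (SE 0.380), with 14.4, 17.7, 69.8 and 85.4 CPM in the other barcodes.

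The red cell genes Car2, Tent5c and St3gal5 differed by 1.48 (SE 0.234), 1.16 (SE 0.224) and 1.25 (SE 0.249). The mitotic enzyme Ube2c differed by 0.97 (SE 0.215) and the folate enzyme Mthfd2 by 1.14 (SE 0.273). In erythroid barcodes alone none of these genes was called, with log2 fold changes of 0.77, 0.18, 0.83, 0.21 and 0.25 in that order. In the other barcodes the changes were -0.80, -1.02, -0.50, -0.79 and -1.10, none of them called. Mthfd2 had 94, 62, 25 and 79 erythroid UMIs, so that for its depth DTA+ replicate 2 was above both controls and DTA+ replicate 1 below both. In the other barcodes Car2 was at 6.34, 4.67, 4.44 and 2.23 CPM, from 397, 224, 197 and 105 UMIs. Of these, 145, 39, 110 and 35 UMIs lay in the 311, 278, 224 and 92 barcodes of 10 to 50% globin. Barcodes under 10% globin held Hbb-bs at 1319, 1471, 949 and 529 CPM. The part of this erythroid mRNA in these differences was not tested.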

How the results depend on the processing

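Across the alternatives, differences are DTA+ minus DTA-, and causes were not tested. The count of called genes was 4 in the main test, 13 with a likelihood ratio test or with barcodes down to 25% globin, 11 with DESeq2 size factors, 14 without a filter on low counts, and 1 with DESeq2, at 80% globin or more, below 7500 UMIs or thinned to 1000 UMIs. Leaving out one library gave 1 to 32 genes, 32 without DTA- replicate 1, 22 without DTA- replicate 2 and 1 without either DTA+ library. The interaction gave 7 to 34 genes, 7 without DTA- replicate 2 and 34 without DTA+ replicate 1. Pgam1 was lower in all 17 alternatives (-2.38 to -1.13). At 25% globin Tpsb2 was 2.71 and Cpa3 2.55, and under an Hbb-bt share of 5% the log2 ratio of Pgam1 was 0.66. With a library left out Hbb-y ranged from -7.20 to 2.77, the latter without DTA- replicate 1.

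Barcodes rich in embryonic globin differed by 0 percentage points above 2000 UMIs and at an embryonic share of 75%, and by -0.0886 to 0 with a library left out. Heme synthesis differed by -0.0463 points at 80% globin, -0.0109 below 7500 UMIs and -0.0328 thinned, progenitor genes by 0.00302 at 25% globin and 0.000356 at 80%, and G2 and M genes by -0.00385 at 25%. Dissociation stress genes differed by -0.00941 at 80% globin, -0.0106 under the filter of the study and -0.00807 below 7500 UMIs. With a library left out, the ranges that crossed 0 were -0.262 to 2.14 points for Hbb-bt among adult beta UMIs, -0.468 to 1.38 for Hbb-bt and -0.107 to 0.940 for Hba-a1 among globin UMIs, -24 to 29 for median non-globin UMIs and -10 to 12 for genes. They were also -0.237 to 0.862 for ribosomal RNA overlap, -0.152 to 0.180 for heme synthesis, -0.00130 to 0.0125 for transcription factors, -0.00273 to 0.000401 for progenitor genes, -0.0124 to 0.0847 for G2 and M genes and -0.0820 to 0.156 for stress genes. Without crossing 0 they were -9.54 to -2.30 points for the share of erythroid barcodes, 0.408 to 1.75 for Hba genes and -2.21 to -0.850 for Hbb-bs among globin UMIs, -6.61 to -2.39 for ribosomal protein genes, 0.544 to 1.44 for iron genes and 0.175 to 1.51 for redox genes.

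Replicate numbers are shared by the groups but nothing ties them to a litter or day, and deviations of the replicates numbered 1 correlated at 0.139. With a replicate block 5 genes were called, Hbb-y in addition to the 4 (adjusted p = 7.19e-07 by edgeR's quasi-likelihood test, against 0.109 without the block). With 2 libraries a group the exact tests could not pass a threshold, so they say nothing about stability, and rare transcripts such as the embryonic globins are limited by depth.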

Other observations

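Embryonic globin mRNA also lay outside the erythroid rule in DTA- replicate 1. Barcodes of at most 1000 UMIs with at least 50% globin held 221 Hbb-y and 315 Hba-x UMIs, most of them in a barcode of 694 UMIs with 204 of Hbb-y, 267 of Hba-x and 0 of Hbb-bs. Barcodes under 10% globin held 247 Hbb-y and 278 Hba-x UMIs, of which a single barcode of 9053 UMIs held 232 and 185. In DTA- replicate 2 a barcode under 10% globin held 23 Hbb-y UMIs, and the DTA+ libraries had 2 and 0 there.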
